A study of Homo sapiens with 6 samples.

Results

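The USP and UCH deubiquitinases are cysteine proteases that cut ubiquitin from proteins. They were followed in LP-1, a human multiple myeloma line, and in LP-1/Cfz, its derivative resistant to 12 nM carfilzomib, an inhibitor of the proteasome. Members were the probe sets whose single annotated symbol is USP with a number, with or without X, together with UCHL1, UCHL3, UCHL5 and BAP1, and Y-linked genes were left out. The rule found 136 of 54613 probe sets, which stand for 48 of 19775 genes. BAP1, USP6, USP10, USP15, USP32, USP41 and USP50 had no probe set that names the gene alone and are not analysed here. RNA of 3 LP-1/Cfz samples and of 3 samples of the parent was hybridised, each to 1 Affymetrix human genome array. LP-1/Cfz cells had grown for 1 week without the drug, the parental cells had never been selected in it, and both were kept in medium with 4% serum per the labels. The sources do not say if LP-1/Cfz is a single clone or if the triplicates were separate cultures, and p-values therefore measure the spread between these samples only, which may be technical.

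Ubiquitin marks proteins for the proteasome, for sorting in membranes or for a change in activity, and deubiquitinases reverse or edit that mark. In the proteasome itself, USP14 and UCHL5 trim chains from substrates before these enter the core that carfilzomib blocks. Other members recycle free chains, act on histones or protect single regulators such as p53, MYC or MCL1 from breakdown. Myeloma cells make large amounts of immunoglobulin and depend strongly on the ubiquitin and proteasome system.

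The deposited log2 values are centred, so only differences between arrays can be read and neither a level nor the presence of USP14, UCHL5 or a plasma cell marker can be checked. Values below are therefore given as log2 differences from the mean of the 3 LP-1 arrays, and a gene is the mean of its single-gene probe sets. LP-1/Cfz replicate 3 stood apart from the other 5 arrays, with a limma array weight of 0.389 against 0.951 to 1.51. Of 9 plasma and myeloma cell markers, 3 passed as higher and 2 as lower. The higher ones were MZB1 at a log2 fold change of 0.39, SDC1 at 0.38 and TNFRSF17 at 0.27. The lower ones were SLAMF7 at -2.17 and CD38 at -1.07. Of 6 T and NK cell markers 1 passed as lower, and none of 4 myeloid or 5 stromal markers passed by limma. The part of these shifts in the results below was not tested.

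Deubiquitinases passed as lower in the resistant cells about as often as all genes did, and the differences were small. After Benjamini-Hochberg adjustment of limma p-values across the 19775 genes, 4 of 48 members fell, USP11, USP1, USP37 and USP16, and 0 rose. The 4 are 8.33% of the members, where 10% of all genes passed as lower, and 6.72% of all genes passed as higher. At an unadjusted p under 0.05, 8 members were lower and 2 higher. The share of all genes under that threshold was not counted, so no tilt can be read from these numbers. Over single probe sets, 6 of 136 passed as lower (4.41%) and 0 as higher, against 6.76% and 4.25% of all probe sets.

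The size of the differences was also small across the family. Log2 fold changes ran from -0.48 for USP11 to 0.18 for USP5, which did not pass (adjusted p = 0.119 from limma). As a gene mean, no member reached a fold change of 1.7, which 1.71% of all genes did. The study applied that cutoff to single probe sets. Of the member probe sets 0 reached it, where 247 of all 54613 did as higher and 620 as lower. The median log2 fold change was 0.019 over the members and 0.017 over all genes, and the median size without sign was 0.062 and 0.097. For 31 of the 44 genes that did not pass, the 95% interval of the difference lay within 1.2-fold in either direction, and for all 44 within 1.5-fold. These intervals come from the limma fit and are not adjusted for the number of genes. The LP-1/Cfz values lay wholly below the LP-1 values for 11 genes and wholly above them for 5, which is 22.9% and 10.4% of the members against 19.3% and 16.6% of all genes.

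**Figure D1:**
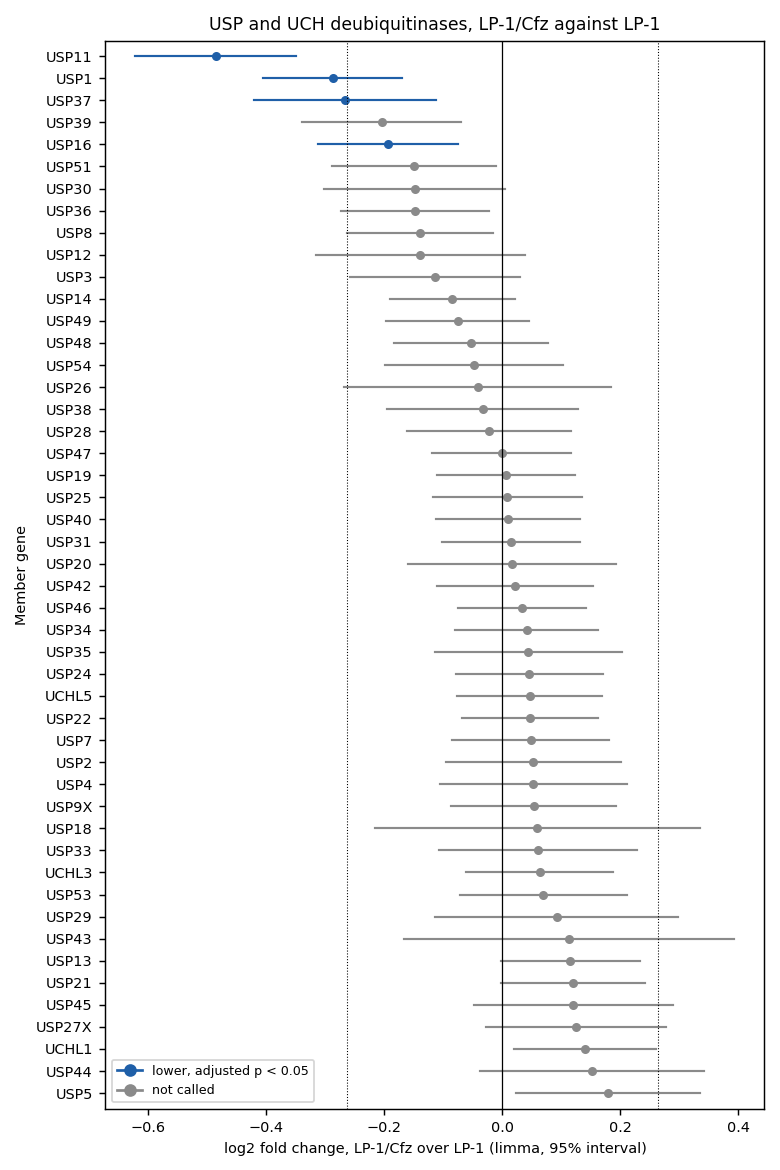
Log2 fold change of LP-1/Cfz over LP-1 for the 48 member genes (vertical axis), with the 95% interval from limma. Blue marks the 4 genes that passed at an adjusted p under 0.05, grey the other 44, and dotted lines a 1.2-fold difference. USP11 lies furthest from 0, at -0.48, and most intervals lie between the dotted lines.

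USP14 and UCHL5, the deubiquitinases that dock on the proteasome, did not pass the test. USP14 gave -0.06, -0.09 and -0.10 on the LP-1/Cfz arrays and -0.01, -0.01 and 0.02 on the LP-1 arrays. All 3 LP-1/Cfz values were the lower ones, and the log2 fold change was -0.08 (95% interval -0.19 to 0.02, adjusted p = 0.27 from limma). Its 3 probe sets had -0.05, -0.11 and -0.09. UCHL5 gave 0.04, 0.12 and -0.01 on the LP-1/Cfz arrays and -0.01, 0.02 and -0.01 on the LP-1 arrays, so that the groups overlapped. Its log2 fold change was 0.05 (95% interval -0.08 to 0.17, adjusted p = 0.612). The 4 probe sets of UCHL5 ran from -0.07 to 0.18, and with their median in place of their mean the sign turned, to -0.02.

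The partner that holds UCHL5 on the proteasome did fall. ADRM1, the ubiquitin receptor Rpn13, gave -0.31, -0.39 and -0.40 on the LP-1/Cfz arrays and 0.02, -0.01 and -0.01 on the LP-1 arrays. These groups did not overlap, and the difference on the log2 scale was -0.37 (SE 0.049, limma adjusted p = 0.00191, 1 probe set). ADRM1 passed whichever of the 6 arrays was left out, but not against a minimum fold change of 1.2 (adjusted p = 0.56 from limma). PSMD2 and PSMD14, other proteasome subunits among the listed genes, had -0.14 and -0.09 without overlap of the groups. Neither passed (limma adjusted p = 0.0744 and 0.245). Whether ADRM1 and UCHL5 differ in their change was not tested.

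USP11 showed the largest difference of the family. The protein belongs to the same branch as USP4 and USP15 and takes part in the repair of broken DNA. It gave -0.41, -0.48 and -0.57 on the LP-1/Cfz arrays and -0.03, -0.03 and 0.06 on the LP-1 arrays, so that the groups lay far apart. The resistant cells were 1.40-fold lower, or -0.48 on the log2 scale (SE 0.0587, adjusted p = 0.00124 from limma), but USP11 rests on 1 probe set. Leaving out each array in turn gave values from -0.52 to -0.44 and never ended the call. Its paralog USP4 had 0.05 (95% interval -0.11 to 0.21) and did not pass. USP11 is on the X chromosome, where 163 of 696 genes passed as higher and 41 as lower. Among its 20 nearest measured genes, 0 passed as higher and 2 as lower, with a median log2 fold change of -0.03.

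USP1 removes ubiquitin from PCNA and from the Fanconi anaemia protein FANCD2. It gave -0.27, -0.24 and -0.35 on the LP-1/Cfz arrays, while the LP-1 arrays lay within 0.0044 of their mean. The log2 fold change was -0.29 (SE 0.0507, adjusted p = 0.00717 from limma), and both of its probe sets passed, at -0.33 (adjusted p = 0.0246) and -0.25 (adjusted p = 0.0297). USP1 passed whichever of the 6 arrays was left out. With the arrays quantile normalized again, the value moved to -0.16 (adjusted p = 0.0421). Both probe sets are of a kind (_s_at) whose probes can match several transcripts. WDR48, the cofactor that activates USP1, did not pass, nor did USP12 or USP46, which share it.

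USP37, which counters the breakdown of cyclin A, gave -0.30, -0.13 and -0.36 on the LP-1/Cfz arrays and -0.02, 0.00 and 0.02 on the LP-1 arrays. The groups did not overlap, and LP-1/Cfz replicate 2 lay nearest to the parental cells. The log2 fold change was -0.27 (SE 0.0665, adjusted p = 0.0312 from limma). Each of its 3 probe sets was lower, from -0.31 to -0.23, but none passed alone, and with their median in place of their mean USP37 had -0.20 and did not pass (adjusted p = 0.159). USP26 and USP29, the testis genes most related to it, gave -0.04 and 0.09 with overlapping groups.

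USP16 removes ubiquitin from histone H2A. It gave -0.18, -0.15 and -0.25 on the LP-1/Cfz arrays and -0.03, 0.03 and 0.00 on the LP-1 arrays, again without overlap. The log2 fold change was -0.19 (SE 0.0509, adjusted p = 0.0383 from limma). Its 3 probe sets were close to each other, from -0.20 to -0.18, and none passed by itself. USP45, the nearest paralog of USP16, had 0.12 (95% interval -0.05 to 0.29).

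The calls of USP37 and USP16 lay close to the threshold and were mostly lost with 5 arrays, while their values stayed of like size. Without LP-1/Cfz replicate 1 or 3, or without LP-1 replicate 1, 2 or 3, only 2 members passed, USP11 and USP1. Without LP-1/Cfz replicate 2, 4 members passed, USP11, USP1, USP37 and USP39. Calls were also fewer over all genes, with 1230 to 1755 of 19775 lower in these 6 fits against 1984 with all 6 arrays. Over these 6 fits USP16 ran from -0.21 to -0.16 (adjusted p from 0.0516 to 0.125) and USP37 from -0.33 to -0.22 (adjusted p from 0.0101 to 0.107). USP39, a splicing factor that has lost the protease activity, was the member just outside the threshold, with -0.20 (adjusted p = 0.0505). It was singled out after its values were seen. Against a minimum fold change of 1.2, no member passed, where 215 of the 19775 genes passed as higher and 409 as lower. The adjusted p of USP11 was 0.0802 from limma in that fit.

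**Figure D2:**
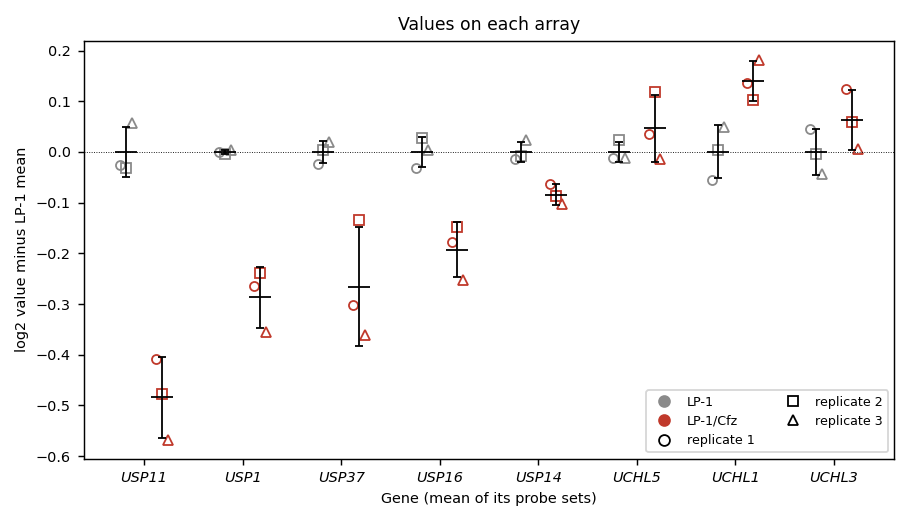
Values of the 4 genes that fell and of USP14 and the 3 UCH enzymes on each array. The vertical axis gives log2 differences from the LP-1 mean, symbols mark the replicates (LP-1 grey, LP-1/Cfz red), and bars are mean and SD over the 3 arrays of a group. The groups are separate for USP11, USP1, USP37 and USP16, and LP-1/Cfz replicate 3 is the lowest array for each of these.

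The promoters of the genes that fell are shown for USP11, USP1 and USP16, since these genes moved in the same direction. Each is the 250 bases before a start in the RefSeq promoter table (GRCh38.p14), on the plus strand and 5′ to 3′, and USP1 has a pair of starts there. Capitals mark CCAAT on either strand.

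USP11, chrX:47232759-47233008: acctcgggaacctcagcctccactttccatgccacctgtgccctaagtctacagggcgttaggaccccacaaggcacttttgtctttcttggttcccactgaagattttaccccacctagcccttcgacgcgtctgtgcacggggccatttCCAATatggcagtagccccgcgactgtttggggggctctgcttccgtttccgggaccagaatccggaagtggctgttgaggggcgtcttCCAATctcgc

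USP1, first start, chr1:62436145-62436394: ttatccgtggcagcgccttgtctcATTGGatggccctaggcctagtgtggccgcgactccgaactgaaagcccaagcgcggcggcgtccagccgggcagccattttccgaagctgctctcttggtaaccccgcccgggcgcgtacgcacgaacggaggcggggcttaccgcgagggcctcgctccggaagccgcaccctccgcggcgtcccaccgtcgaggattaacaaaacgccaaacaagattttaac

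USP1, second start, chr1:62436799-62437048: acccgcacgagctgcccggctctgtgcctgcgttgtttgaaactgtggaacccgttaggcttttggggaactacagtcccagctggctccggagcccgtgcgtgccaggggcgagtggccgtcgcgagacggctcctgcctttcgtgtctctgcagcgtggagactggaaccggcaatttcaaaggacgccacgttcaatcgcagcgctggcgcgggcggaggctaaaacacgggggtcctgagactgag

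USP16, chr21:29024418-29024667: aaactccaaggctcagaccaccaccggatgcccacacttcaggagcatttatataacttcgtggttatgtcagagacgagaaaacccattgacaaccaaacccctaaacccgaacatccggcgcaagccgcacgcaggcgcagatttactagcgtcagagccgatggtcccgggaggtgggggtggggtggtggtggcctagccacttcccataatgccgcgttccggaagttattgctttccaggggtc

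The windows were searched on both strands for CCAAT, the site of NF-Y, for TGACNNNGC, the core of the antioxidant response element of Nrf2, and for TTTNNCGC, a loose form of the E2F site. CCAAT was found at USP11 and at the first start of USP1, the other motifs in none of these 4 windows, and no marked sites overlap. Among all 35116 promoters of the table, 32.0% hold CCAAT, 10.9% TGACNNNGC and 5.92% TTTNNCGC. Among 53 promoters of 37 member genes the shares were 24.5%, 13.2% and 7.55%. USP37 is not shown. A match is a description of these letters and not of binding.

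In 3 further genes a single probe set passed while the gene did not. USP36, a nucleolar enzyme that stabilises MYC, had 1 of 5 probe sets at -0.38 (adjusted p = 0.0345 from limma). The other 4 ran from -0.21 to 0.10, and the gene had -0.15 (adjusted p = 0.112). USP3, which acts on ubiquitin of histones, had 1 probe set at -0.35 (adjusted p = 0.0267) and the other at 0.12 with the groups apart in the opposite direction. Its mean of -0.11 did not pass (adjusted p = 0.275), and without the _s_at probe set the gene passed at -0.35 (adjusted p = 0.0178). USP49, a histone H2B enzyme, had 1 of 7 probe sets at -0.22 (adjusted p = 0.0444) and a mean of -0.08 (adjusted p = 0.384). Of the 36 genes with more than 1 probe set, 24 had probe sets of both signs, 8 had all of them lower and 4 all of them higher. Of the 6 probe sets that passed, only that of USP11 passed without LP-1 replicate 1, 2 or 3. Without LP-1/Cfz replicate 1 those of USP11 and USP36 passed, and without LP-1/Cfz replicate 3 those of USP11 and USP36 and 1 of USP1. Without LP-1/Cfz replicate 2, 5 member probe sets passed, those of USP11 and USP3, 1 of USP1, and 1 each of USP37 and USP38. Over all 54613 probe sets, 2062 to 3081 passed as lower with 1 array left out, against 3691 with every array.

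**Figure D3:**
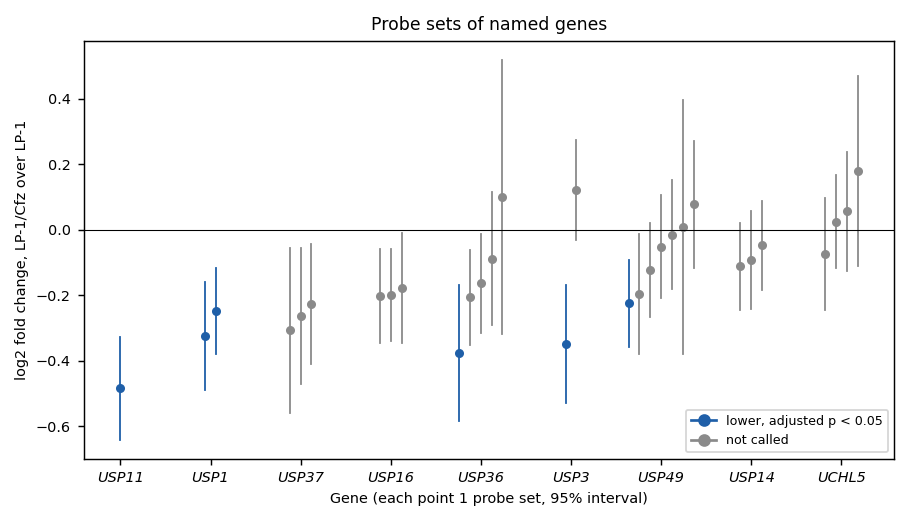
Log2 fold change of single probe sets for the 4 genes that fell, the 3 genes with 1 probe set that passed, USP14 and UCHL5. Each point is 1 probe set with its 95% interval from limma, blue where its adjusted p was under 0.05. The points lie close together for USP1, USP37 and USP16 and spread to both sides of 0 for USP36, USP3, USP49 and UCHL5.

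By role, the enzymes that act on free ubiquitin chains and small adducts, USP5, USP13, UCHL1 and UCHL3, had 0 of 4 called and values from 0.06 to 0.18. UCHL1, an abundant enzyme of neurons that some myelomas express, gave 0.14, 0.10 and 0.18 on the LP-1/Cfz arrays and -0.05, 0.00 and 0.05 on the LP-1 arrays. These groups did not overlap, and the log2 fold change of 0.14 (95% interval 0.02 to 0.26) did not pass (adjusted p = 0.114 from limma). With the arrays quantile normalized again it was 0.23 and passed (adjusted p = 0.0296). UCHL3 had 0.06 (95% interval -0.06 to 0.19) with overlapping groups. USP5, chosen for the largest positive value, gave 0.21, 0.25 and 0.08 on the LP-1/Cfz arrays and 0.07, -0.10 and 0.03 on the LP-1 arrays. The groups were narrowly apart, and USP5 passed with array weights (adjusted p = 0.049).

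The enzymes of membranes and traffic (USP8, USP19, USP20, USP25, USP30 and USP33), which act at endosomes, the endoplasmic reticulum and mitochondria, had 0 of 6 called, with values from -0.15 to 0.06. Those known for p53, MYC or MCL1 (USP2, USP7, USP9X, USP24, USP28 and USP36) had 0 of 6 called, from -0.15 to 0.05. Of 6 enzymes of DNA repair, among them USP11 and USP1, 2 fell, and of 10 that act on chromatin 1 fell, USP16. With 10% of all genes lower and so few genes in a group, nothing about a role can be read from these counts. The signalling enzymes USP4, USP18, USP31 and USP34 had 0 of 4 called, from 0.01 to 0.06, and of 10 further members 1 fell, USP37. Each gene stands in a single group although several have more than 1 role.

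Listed genes of deubiquitinase families that the name rule left out changed in both directions. They were listed by family or domain, and not all are deubiquitinases by activity. Of 32 measured, 3 rose and 6 fell by limma, where 6.72% of all genes passed as higher and 10% as lower, and whether the list differs from these shares was not tested. Among the OTU enzymes, OTUD1 gave -0.61, -0.65 and -0.98 on the LP-1/Cfz arrays, with the LP-1 arrays between -0.04 and 0.07. Its log2 fold change of -0.74 (SE 0.0993, adjusted p = 0.00191) was larger than that of any USP or UCH gene. TNFAIP3, the A20 protein that restrains NF-kB signalling, fell by 0.41 (adjusted p = 0.0044), with both probe sets passing. ZRANB1 and VCPIP1 fell by 0.30 (adjusted p = 0.0129) and 0.23 (adjusted p = 0.0257). STAMBPL1, a metalloprotease of endosomes, fell by 0.51 (adjusted p = 0.00247) and JOSD1 by 0.25 (adjusted p = 0.0286). Of the 4 probe sets of STAMBPL1 2 passed and 1 had -0.0095, and their median passed too, at -0.54 (adjusted p = 0.000708), whereas the median of the probe sets of VCPIP1 did not, at -0.15 (adjusted p = 0.111).

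The rises were in BRCC3, a metalloprotease of the BRCA1-A complex, at 0.32 (adjusted p = 0.0052 from limma), ALG13, a subunit of an N-glycosylation enzyme that carries an OTU domain, at 0.28 (adjusted p = 0.00492), and OTUB1 at 0.19 (adjusted p = 0.0488). All 4 probe sets of BRCC3 passed and 2 of 5 of ALG13, whose median of probe sets did not (0.17, adjusted p = 0.242). BRCC3 and ALG13 are on the X chromosome, and 8 of the 17 nearest measured genes of BRCC3 and 6 of the 20 of ALG13 passed as higher. The part of the X chromosome in these values was not tested. In the 6 fits that left out 1 array, the call was lost 5 times for OTUB1, 4 times for JOSD1, 3 times for VCPIP1 and once for ZRANB1, and the highest adjusted p among these was 0.154.

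Of 23 measured partners of USP and UCH enzymes, 1 rose and 5 fell, beside the same 6.72% and 10% of all genes, and only ADRM1 and GMPS of the 5 passed whichever array was left out. Beside ADRM1, the falls were in GMPS, the GMP synthetase that activates USP7, at -0.31 (adjusted p = 0.0107 from limma), in MDM2, the p53 ligase that USP7 protects, at -0.24 (adjusted p = 0.0186), in ASXL1, the cofactor of BAP1, at -0.22 (adjusted p = 0.0259) and in G3BP1, a stress granule protein bound by USP10, at -0.17 (adjusted p = 0.0468). The calls of MDM2 and ASXL1 were each lost in 4 of 6 fits that left out 1 array, and that of G3BP1 in all 6, with adjusted p values up to 0.158. With the median of the probe sets MDM2 had -0.15 (adjusted p = 0.118), and ASXL1 -0.19 (adjusted p = 0.0857). OGT, the O-GlcNAc transferase found in BAP1 complexes, rose by 0.40 (adjusted p = 0.00217), with 5 of 6 probe sets passing, and is X-linked too, with 6 of its 20 nearest measured genes higher and 3 lower. Of the ubiquitin genes only UBB was measured, at -0.04 (95% interval -0.14 to 0.07). The median over the partners was -0.12, against 0.017 over all genes, which describes a list and was not tested.

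**Figure D4:**
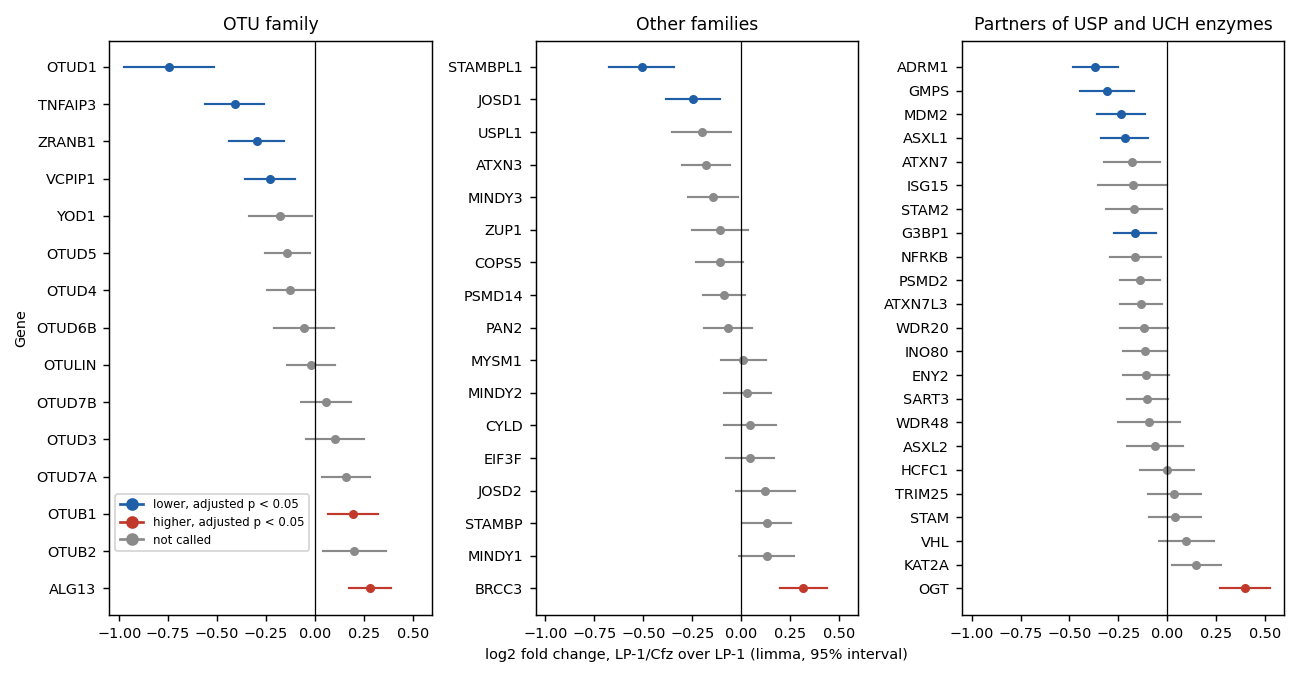
Log2 fold change of LP-1/Cfz over LP-1 with the 95% interval from limma. Panels show genes of the OTU family, of other deubiquitinase families, and partners of USP and UCH enzymes. Blue and red mark genes lower and higher at an adjusted p under 0.05. OTUD1 lies lowest at -0.74 and OGT highest at 0.40.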

How the data were processed

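Arrays of 3 LP-1/Cfz and 3 LP-1 samples were compared, grouped by the sample titles. The deposited values are log2 values that the authors normalized (RMA is named in the submitters' notes, no version given), centred for each probe set on an unknown baseline. Filters on dim probe sets were therefore not used. Of 54613 probe sets, 41091 name 1 gene by the platform annotation, 1801 several and 11721 none. Of the 41091 probe sets that name 1 gene, 41037 had an identifier found in a RefSeq table (GRCh38.p14). That table gave current symbols and positions in gene order, and promoters came from the RefSeq promoter table. For each gene the mean of its single-gene probe sets was taken. Groups were compared by limma 3.58.1 in R 4.3.3 (lmFit, eBayes, no covariate), two-sided, with Benjamini-Hochberg adjustment over all genes, and likewise over all probe sets, at an adjusted p under 0.05. An exact permutation test of 3 against 3 arrays cannot go below 0.1. The number of arrays limits the precision.

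Named were USP14, the UCH enzymes, genes called, genes with a called probe set, paralogs of called genes, and up to 6 called genes per list and direction. Members and lists were chosen with earlier results of these data known. The fits were tested on simulated data. Deviations of same-numbered arrays of the groups correlated weakly (-0.05, 0.13 and -0.01), which cannot settle whether they were paired. The numbers were not used as pairs in the main fit, and a fit with a replicate block is given below.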

Additional observations from a re-analysis of the deposited data

How the results depend on the processing

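The number of member genes that fell was 4, and it was 3 to 5 with another normalization, array weights, a robust prior, a replicate block or another summary of the probe sets. It was 0 against a minimum fold change of 1.2 and 0 at a fold change of 1.7, and 2 to 4 with 1 array left out. Over all genes the count of 1984 lower became 1329 (of 17098 genes) to 2273 with the other normalizations, weights, prior, block and summaries. It became 409 and 250 under the fold settings and 1230 to 1755 with 1 array left out. For probe sets the member count of 6 became 0 under both of these fold settings and 1 to 5 with 1 array left out. Over all probe sets the count of 3691 lower became 869 and 620 under the fold settings and 2062 to 3081 with 1 array left out. No member gene rose in the values reported above, while 1 did after a second quantile normalization (UCHL1, also 1 probe set) and 1 with array weights (USP5). In these fits 1451 and 1768 of the 19775 genes passed as higher. USP39 passed as lower after a second quantile normalization, with array medians set to 0 and with array weights (adjusted p = 0.0312, 0.0489 and 0.033 from limma). USP11 passed in every alternative except the minimum fold change of 1.2 and the fold change of 1.7. USP1 and USP16 have only _s_at or _x_at probe sets and could not be fitted without them. Whether the replicate numbers mark pairs is not known. Not every LP-1/Cfz array correlated best with its own number, but correlations this weak cannot settle whether samples shared handling. With the replicate block, 3 member genes and 3 member probe sets fell, beside 1571 of all genes and 2815 of all probe sets. USP16 was lost there (adjusted p = 0.0818 from limma). With only the probe set of highest mean, USP16 (adjusted p = 0.0664) and USP37 (-0.26, adjusted p = 0.103) were lost and USP49 (adjusted p = 0.0349) passed. The sign turned for values that did not pass: UCHL5 to -0.016 with the median of its probe sets, USP3 to 0.12 and USP36 to 0.10 with only the probe set of highest mean, and USP26, which ran from -0.13 to 0.027 with 1 array left out (0.026 without LP-1 replicate 2). Highest mean is no guide to brightness in centred values. The cause of these changes was not tested.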

Other observations

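USP15, a close relative of USP11, is read on these arrays by 4 probe sets that the annotation gives to USP15 and the microRNA gene MIR6125 together, so that it was not counted as a member. One of the 4 passed as lower in LP-1/Cfz, at -0.48, -0.41 and -0.53 against 0.08, -0.01 and -0.07 on the LP-1 arrays, a log2 fold change of -0.47 (adjusted p = 0.00399 from limma). The other 3 had 0.09, -0.01 and 0.03 and did not pass. Which transcript the first of them reads is not settled by the annotation. A probe set given to USP4 and a pair of other genes had 0.12 (adjusted p = 0.411).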
